A study of Drosophila melanogaster with 72 samples.

Results

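The Osiris and Tweedle genes of Drosophila melanogaster were followed in RNA-seq of whole embryos and larvae from a study of the nuclease subunit of the Integrator complex, IntS11, and its partner IntS9. The genes were taken by name: every row whose symbol begins with Osi and a digit, or with Twdl. This gave 49 of 16680 annotated genes, 24 Osiris and 25 Tweedle. The study comprised 72 libraries of total RNA depleted of ribosomal RNA, in 36 groups of 2 libraries, from 6 experiments each with its own control.

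The larval experiment held zygotic mutants and WT larvae at 24, 48 and 72 h after egg laying (AEL), 12 libraries in all. The labels do not name the gene mutated in these larvae. The embryonic experiments held 60 libraries. Embryos with mislocalized IntS11, and in a separate experiment mislocalized IntS9, were sampled with their WT at 0 to 0.5, 1 to 1.5 and 2.5 to 3 h. IntS11 knockdown (KD) embryos were sampled with their WT in the same windows. A rescue experiment at 1 to 1.5 and 2.5 to 3 h compared embryos given Flag-tagged IntS11 WT, embryos given Flag-tagged IntS11 E203Q, embryos with mislocalized IntS11 and WT embryos. E203Q is an amino acid substitution in IntS11. Embryos treated with alpha-amanitin, an inhibitor of RNA polymerase II, were compared with controls in the same windows as the rescue experiment. The labels give neither the alleles, drivers nor parents behind any group, nor whether the 2 libraries of a group came from separate collections, so the p-values measure only the spread between these libraries, which may be technical.

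Osiris genes encode insect-specific membrane proteins made by epidermal and tracheal cells at the time these cells secrete cuticle, and most of them lie side by side in a single block of the genome, the dosage-sensitive Triplo-lethal region. Tweedle genes encode secreted structural proteins of the cuticle. The dominant Tubby mutation of TwdlD gives short, squat larvae. Larvae replace the whole cuticle at each moult, so both families are known for bursts of expression tied to the moulting cycle, which is paced by the steroid hormone ecdysone.

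In the current Drosophila annotation of build dm6, 20 of the 23 Osiris genes that could be placed lay on chromosome 3R between 6173549 (the start of Osi1) and 6341424 (the end of Osi20). The exceptions were Osi21 on 2L (11284327 to 11285706), Osi22 on 3R (13290629 to 13291846) and Osi23 on 3R (30444076 to 30445046). The row named Osi10 had no match there, where Osi10a and Osi10b stand in its place. On 3R, 12 Tweedle genes lay between 26619118 (TwdlM) and 26641054 (TwdlD), and TwdlF, TwdlG and TwdlV formed a second block from 4247020 to 4255833. TwdlX, TwdlY, TwdlZ and Twdlalpha lay on the X chromosome between 16731091 and 16744365. TwdlC, TwdlQ, TwdlT and TwdlW lay elsewhere on 3R, TwdlE on 2L and TwdlBeta on 2R. All 48 placed genes are annotated as protein-coding.

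Library depth ran from 2061575 to 26074431 expected counts, the authors' estimates of reads per gene. The 48 h mutant larvae were shallower, with 5469172 and 4545049 counts, than the 48 h WT larvae, with 19258687 and 17427040. The KD libraries held 10415095 to 12468983 counts, against 2061575 to 2590455 in their WT libraries. IntS11 mRNA averaged 6.77, 5.76 and 3.21 CPM (counts scaled to library size and composition) in mutant larvae at 24, 48 and 72 h, against 21.0, 15.0 and 14.2 CPM in WT larvae. In the 3 windows IntS11 averaged 5.87, 4.74 and 14.9 CPM in KD embryos and 84.3, 80.0 and 102 CPM in their WT.

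**Figure D1:**
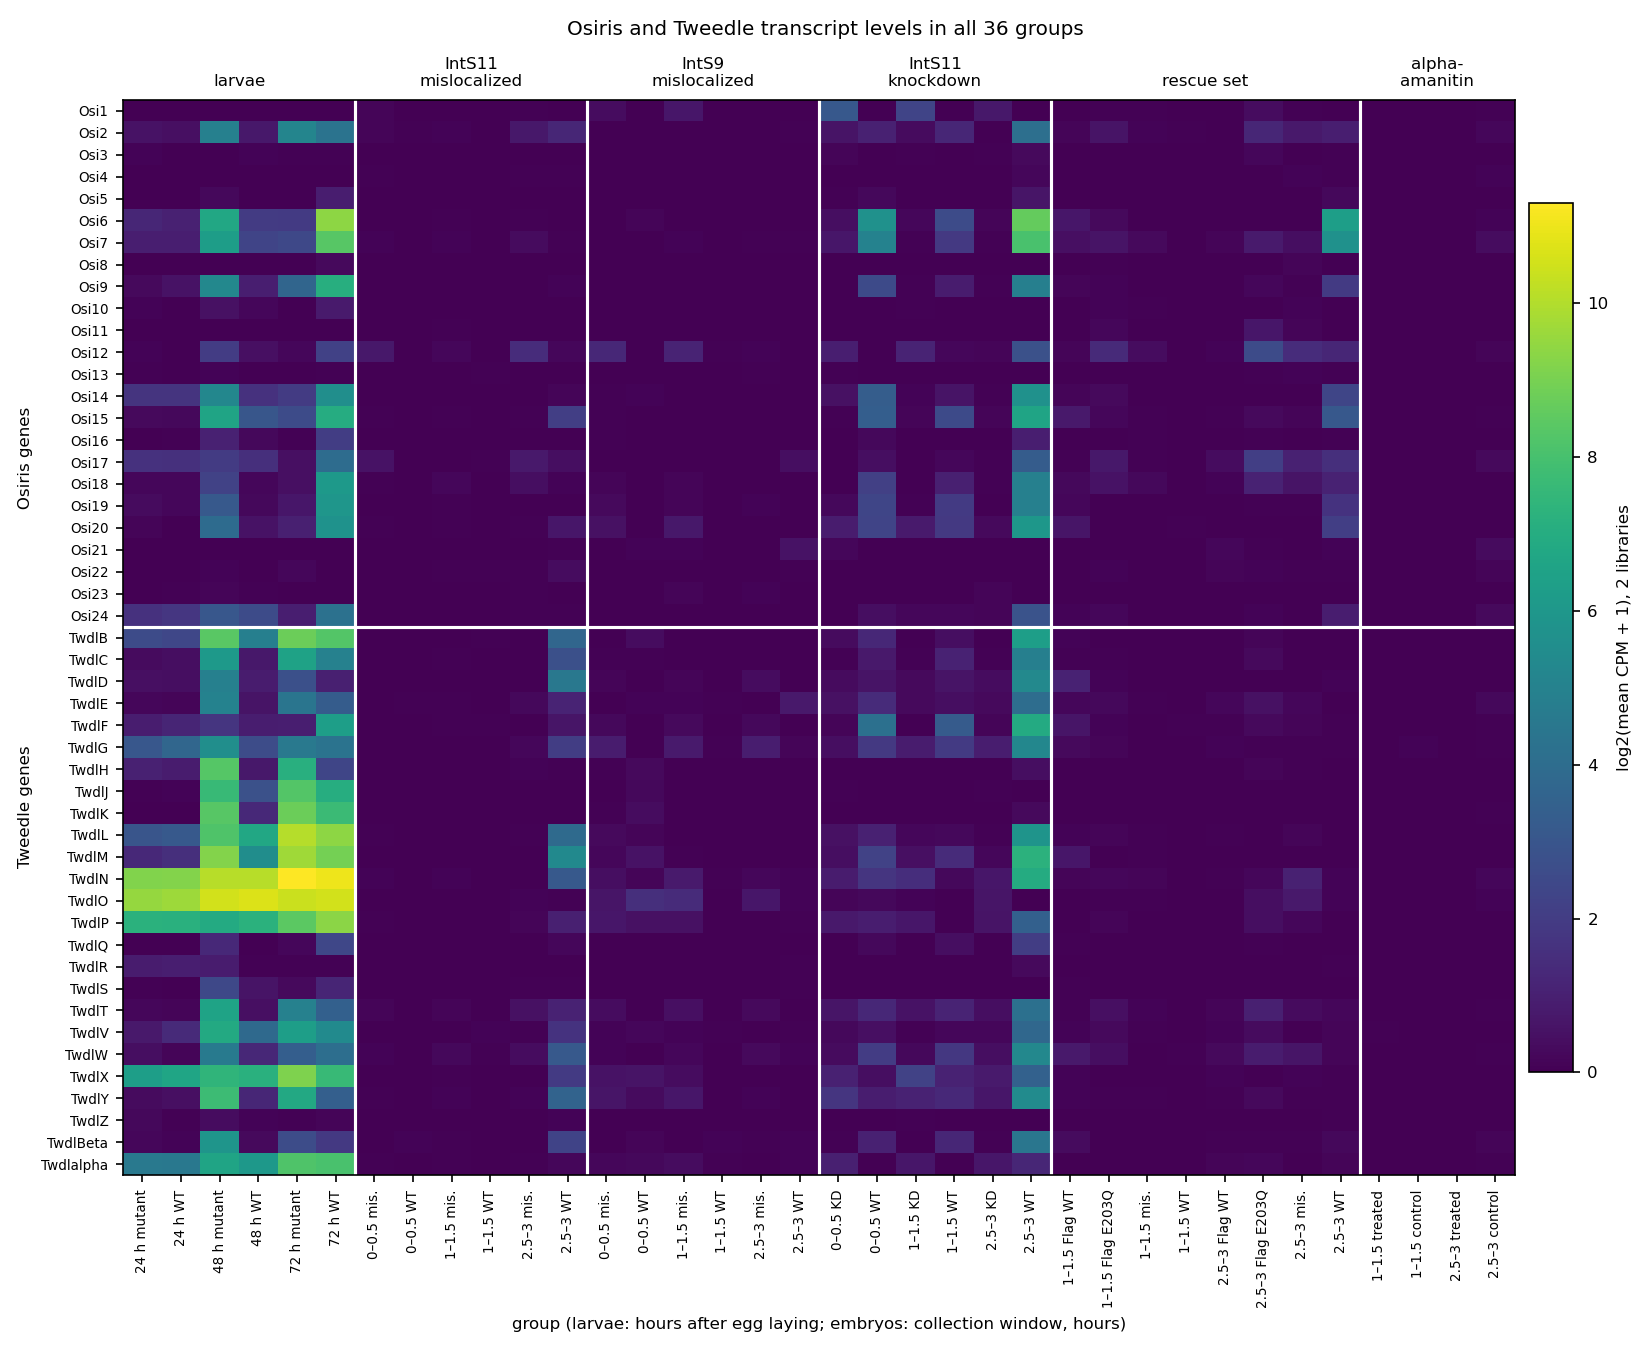
Heat map of mean levels, log2(CPM + 1), of the 24 Osiris and 25 Tweedle genes (rows) in the 36 groups of 2 libraries (columns, by experiment). The strongest colour lies in larvae, where a few Tweedle genes are high in every group and the Osiris genes are high in 48 h mutants and 72 h WT larvae. Osiris sums are also high, at 1019 and 972.9 CPM, in the 2.5 to 3 h WT embryos of the KD experiment.

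In the zygotic mutants Osiris RNA was most abundant at 48 h, and in WT larvae at 72 h. In mutants the 24 genes summed to 10.3 and 10.4 CPM at 24 h, 540 and 321 CPM at 48 h, and 64.3 and 65.9 CPM at 72 h. In WT larvae they summed to 9.16 and 11.2 CPM at 24 h, 27.0 and 25.5 CPM at 48 h, and 1568 and 1530 CPM at 72 h. The mutants therefore held more Osiris RNA than WT larvae at 48 h and less at 72 h, with no overlap of libraries at either age. At 24 h the mutant libraries lay within the WT range.

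Tweedle RNA was abundant at every age. The 25 genes summed to 1594 and 1590 CPM in mutants and 1764 and 1634 CPM in WT larvae at 24 h. At 48 h they summed to 7952 and 3450 CPM in mutants, against 3402 and 3251 CPM in WT larvae. At 72 h the sums were 8290 and 9011 CPM in mutants and 6972 and 6364 CPM in WT larvae. Mutant and WT sums came close to each other at 24 h, and the mutants were above WT at both later ages, narrowly so for the second 48 h mutant library.

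The 48 h mutant libraries stood apart from each other. Ratios of replicate 1 to replicate 2 were taken on CPM + 1, which draws those of low levels towards 1. For the 22 Tweedle genes with at least 20 counts over both, the median ratio was 10.6. Single genes ranged from 0.842 to 112. For 12 Osiris genes the median ratio was 1.71, and for all 9774 genes it was 1.00. In the other larval groups the median ratio of either family lay between 0.866 and 1.08. Every larval comparison that uses the 48 h mutants carries this spread, and a fit that shares its estimate of spread over all larval groups carries it to the other ages as well. For that reason the 24 and 72 h comparisons are also given from a fit without the 48 h mutants, which was added after the values had been seen.

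Per transcript length, the order of the Osiris genes differed between the genotypes at 72 h. In mutants Osi2 came first at 11.7 and 11.9 TPM (the authors' transcript level per length and library), then Osi9 at 4.17 and 4.29 TPM, with Osi6 at 0.98 and 0.67 TPM. In WT larvae Osi6 came first, at 172 and 158 TPM. Osi7, Osi15 and Osi9 followed there between 38.0 and 46.0 TPM, with overlapping libraries, and Osi19 and Osi18 between 20.5 and 22.8 TPM. Osi2 made up 53.0% and 53.8% of the summed Osiris TPM in these mutants, and Osi6 made up 43.0% and 43.1% in WT larvae of that age.

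Osi6 had 1.41 and 1.25 CPM in mutants and 0.90 and 1.19 CPM in WT larvae at 24 h. At 48 h it had 143 and 76.4 CPM in mutants, against 3.22 and 2.56 CPM in WT larvae. At 72 h it had 3.27 and 2.34 CPM in mutants, against 678 and 661 CPM in WT larvae. Both mutant libraries were above both WT libraries at 48 h and below both at 72 h. Osi6 rose by 5.25 ± 0.36 (SE) on the log2 scale at 48 h (edgeR, adjusted p = 8.13e-05) and fell by 7.89 ± 0.35 at 72 h (edgeR, adjusted p = 1.9e-06).

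Osi7, the next Osiris gene along the block, followed the same course with less spread. Its mutant libraries held 72.1 and 84.4 CPM at 48 h, against 4.14 and 3.82 CPM in WT larvae, a log2 change of 4.29 ± 0.09 (edgeR, adjusted p = 5.45e-18). At 72 h they held 4.49 and 4.50 CPM, against 330 and 330 CPM in WT larvae, a log2 change of -6.20 ± 0.08 (edgeR, adjusted p = 5.83e-22). Osi18 had 0.31 and 0.46 CPM in 72 h mutants and 67.9 and 66.1 CPM in WT larvae, a log2 change of -7.44 ± 0.22 (edgeR, adjusted p = 9.27e-16). Osi19, one of the Osiris genes active in the trachea, had 0.66 and 0.51 CPM in 72 h mutants and 59.8 and 62.6 CPM in WT larvae, a log2 change of -6.67 ± 0.43 (edgeR, adjusted p = 7.71e-06). For all 3 genes the groups were far apart at 72 h.

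Osi2 departed from the others. It had 54.9 and 4.43 CPM in 48 h mutants and 0.48 and 0.84 CPM in 48 h WT larvae, so that both mutant libraries were higher but far apart from each other. At 72 h, when other Osiris genes were low in mutants, Osi2 had 33.5 and 34.9 CPM in mutants and 19.5 and 18.3 CPM in WT larvae. The 72 h difference of 0.86 ± 0.64 did not pass the test over all larval groups (edgeR, adjusted p = 0.298). It passed in the fit without the 48 h mutants, at 0.89 ± 0.09 (edgeR, adjusted p = 1.45e-09). Osi9, next in the order of mutant levels, had 11.6 and 12.3 CPM in 72 h mutants, against 140 and 134 CPM in WT larvae.

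Of the 24 Osiris genes, 14 passed the filter on low counts in larvae and were tested. At 48 h 11 of them were called higher in mutants and 0 lower, beside 16% of all 11409 tested genes called higher and 13.8% called lower. At 72 h 0 were called higher and 13 lower, beside 26.6% and 30.6% of all genes. The genes passed the filter through the groups where they were high, so these counts describe them and are not further support. The untested Osi1, Osi3, Osi4, Osi8, Osi10, Osi11, Osi13, Osi21, Osi22 and Osi23 were barely counted in larvae, with at most 30 counts over a group (Osi10 in 72 h WT larvae, against 1 in mutants). Osi5 had 0 counts in 72 h mutants and 35 in WT larvae, at least 10.95-fold lower for a floor of 3 counts over the group.

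**Figure D2:**
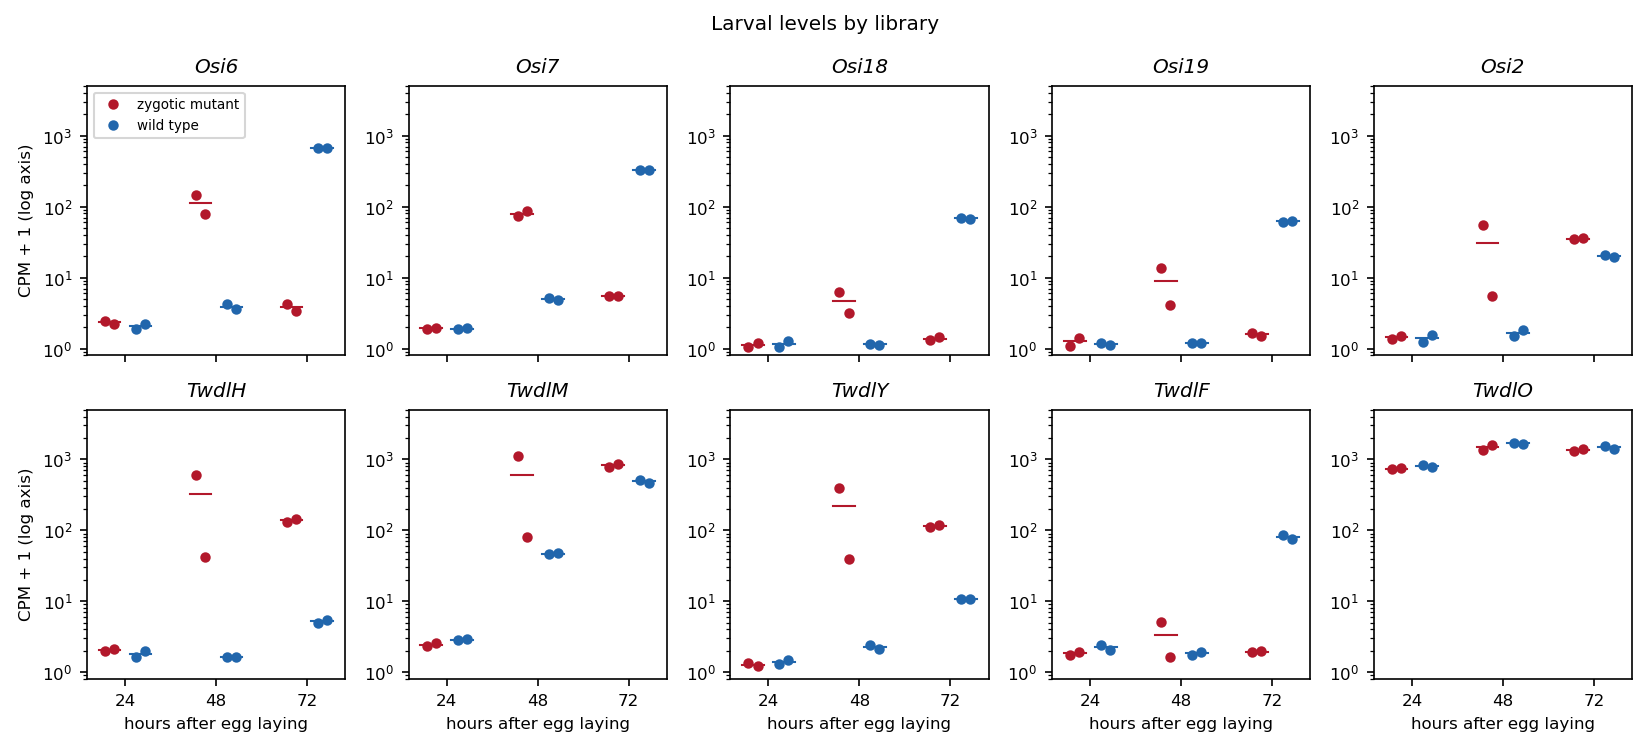
CPM + 1 on a log axis in each larval library at 24, 48 and 72 h AEL, mutants left of WT at each age, for Osi6, Osi7, Osi18, Osi19, Osi2, TwdlH, TwdlM, TwdlY, TwdlF and TwdlO. Dots are libraries and bars are means of 2. Osi6 reaches 143 and 76.4 CPM in 48 h mutants and 678 and 661 CPM in 72 h WT larvae, and the 48 h mutant dots are widely separated for TwdlH.

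The Tweedle genes fell into several patterns. TwdlO had the highest TPM of the family in both genotypes at 24 and 48 h. At 72 h it had 920.8 and 965.2 TPM in mutants and 910.0 and 773.4 TPM in WT larvae, where it was again the highest. In 72 h mutants TwdlN was the highest, at 1131 and 1221 TPM. TwdlN had 590 and 569 CPM in mutants against 622 and 567 CPM in WT larvae at 24 h, 1041 and 1109 CPM against 1123 and 1030 CPM at 48 h, and 2399 and 2651 CPM against 2173 and 1949 CPM at 72 h. The genotypes overlapped at 24 and 48 h, and TwdlN was higher in 72 h mutants by 0.29 ± 0.07 on the log2 scale (edgeR, adjusted p = 9.77e-04).

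TwdlP was the only tested member of either family called lower in mutants at 48 h. It had 123 and 118 CPM in mutants and 149 and 144 CPM in WT larvae. The log2 change was -0.28 ± 0.06 (edgeR, adjusted p = 8.47e-04). At 72 h TwdlP had 347 and 350 CPM in mutants and 657 and 626 CPM in WT larvae, a change of -0.88 ± 0.05 (edgeR, adjusted p = 7.31e-12). Both differences were small beside those of the Osiris genes, and the libraries did not overlap at either age.

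TwdlH was the member with the largest change at 48 h. It had 1.01 and 1.14 CPM in mutants and 0.66 and 0.99 CPM in WT larvae at 24 h, then 598 and 40.5 CPM against 0.64 and 0.66 CPM at 48 h, and 132 and 143 CPM against 3.94 and 4.43 CPM at 72 h. WT larvae stayed low at all 3 ages, while mutants were high at 48 and 72 h. The log2 change was 8.94 ± 1.65 at 48 h (edgeR, adjusted p = 0.00819) and 5.04 ± 1.24 at 72 h (edgeR, adjusted p = 0.013). TwdlH lies beside TwdlN in the 3R block.

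TwdlY, on the X chromosome, had 392 and 39.0 CPM in 48 h mutants and 1.45 and 1.13 CPM in WT larvae. At 72 h it had 110 and 117 CPM in mutants and 9.59 and 9.72 CPM in WT larvae, a change of 3.55 ± 0.94 (edgeR, adjusted p = 0.0173). TwdlX, close to it on the chromosome, overlapped at 48 h and had 551 and 560 CPM in 72 h mutants, against 215 and 171 CPM in WT larvae (1.53 ± 0.14; edgeR, adjusted p = 4.47e-05). Both were higher at 72 h, unlike the Osiris genes, 13 of which were lower. TwdlX, TwdlY, TwdlZ and Twdlalpha overlap the gene goe on the opposite strand, and no source used here states whether strand entered the counting.

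TwdlBeta, on 2R, had 105 and 12.8 CPM in 48 h mutants and 0.11 and 0.30 CPM in WT larvae, a change of 8.19 ± 1.36 (edgeR, adjusted p = 0.00512). TwdlT had 183 and 3.10 CPM in 48 h mutants and 0.43 and 0.36 CPM in WT larvae, a change of 7.88 ± 1.85 (edgeR, adjusted p = 0.0209). At 72 h TwdlT had 28.9 and 32.2 CPM in mutants and 10.5 and 9.34 CPM in WT larvae. At 48 h TwdlT was far higher in 1 mutant library than in the other, and at 72 h the mutant libraries were close together and above both WT libraries.

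TwdlF moved with the Osiris genes. It had 0.92 and 0.97 CPM in 72 h mutants and 84.5 and 73.9 CPM in WT larvae, a change of -6.38 ± 0.24 (edgeR, adjusted p = 4.38e-10). TwdlQ, a gene with few counts, had 0.10 and 0.23 CPM in 72 h mutants and 3.99 and 4.64 CPM in WT larvae (-4.67 ± 0.80; edgeR, adjusted p = 0.00188). At 48 h the TwdlF libraries overlapped, with 4.12 and 0.66 CPM in mutants and 0.75 and 0.95 CPM in WT larvae. TwdlC also overlapped at 48 h, with 136 and 0.22 CPM in mutants and 0.91 and 0.42 CPM in WT larvae. The 48 h calls of TwdlC, TwdlF, TwdlQ and TwdlR as higher rested on mutant replicate 1, since their values without it were -1.59, -0.35, -2.29 and -3.13 on the log2 scale.

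Of the 25 Tweedle genes 24 were tested in larvae. At 48 h 18 were called higher in mutants and 1 lower, beside the 16% and 13.8% of all genes. Leaving out WT replicate 1 or 2 at 48 h reduced the calls over both families to 11 and 12, against 30 with all libraries, and all but TwdlBeta and TwdlP among the Tweedle calls were lost. At 72 h 4 Tweedle genes were called higher (TwdlH, TwdlN, TwdlX and TwdlY) and 3 lower (TwdlF, TwdlP and TwdlQ). Both counts lie below the share of all genes, 26.6% higher and 30.6% lower. In the fit without the 48 h mutants 17 were called higher and 5 lower (TwdlF, TwdlP, TwdlQ, TwdlS and TwdlW), beside 30.1% of all genes called higher and 29.9% lower. There the 72 h calls over both families came to 36, against 20 from all larval groups.

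Median log2 changes at 48 h were 4.23 for the tested Osiris genes and 3.77 for the tested Tweedle genes, beside -0.000578 for all tested genes. At 72 h they were -5.53 and 0.69, beside -0.0483. At 24 h 0 of 38 members were called by edgeR in either direction, beside 9.97% of all genes; 1 had an unadjusted p under 0.05, and DESeq2 called 0. The fit without the 48 h mutants called 3 members lower in mutants at 24 h, TwdlG (-0.69 ± 0.12), TwdlV (-1.22 ± 0.31) and TwdlX (-0.32 ± 0.09), beside 6.05% of all genes called lower and 6.61% higher.

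**Figure D3:**
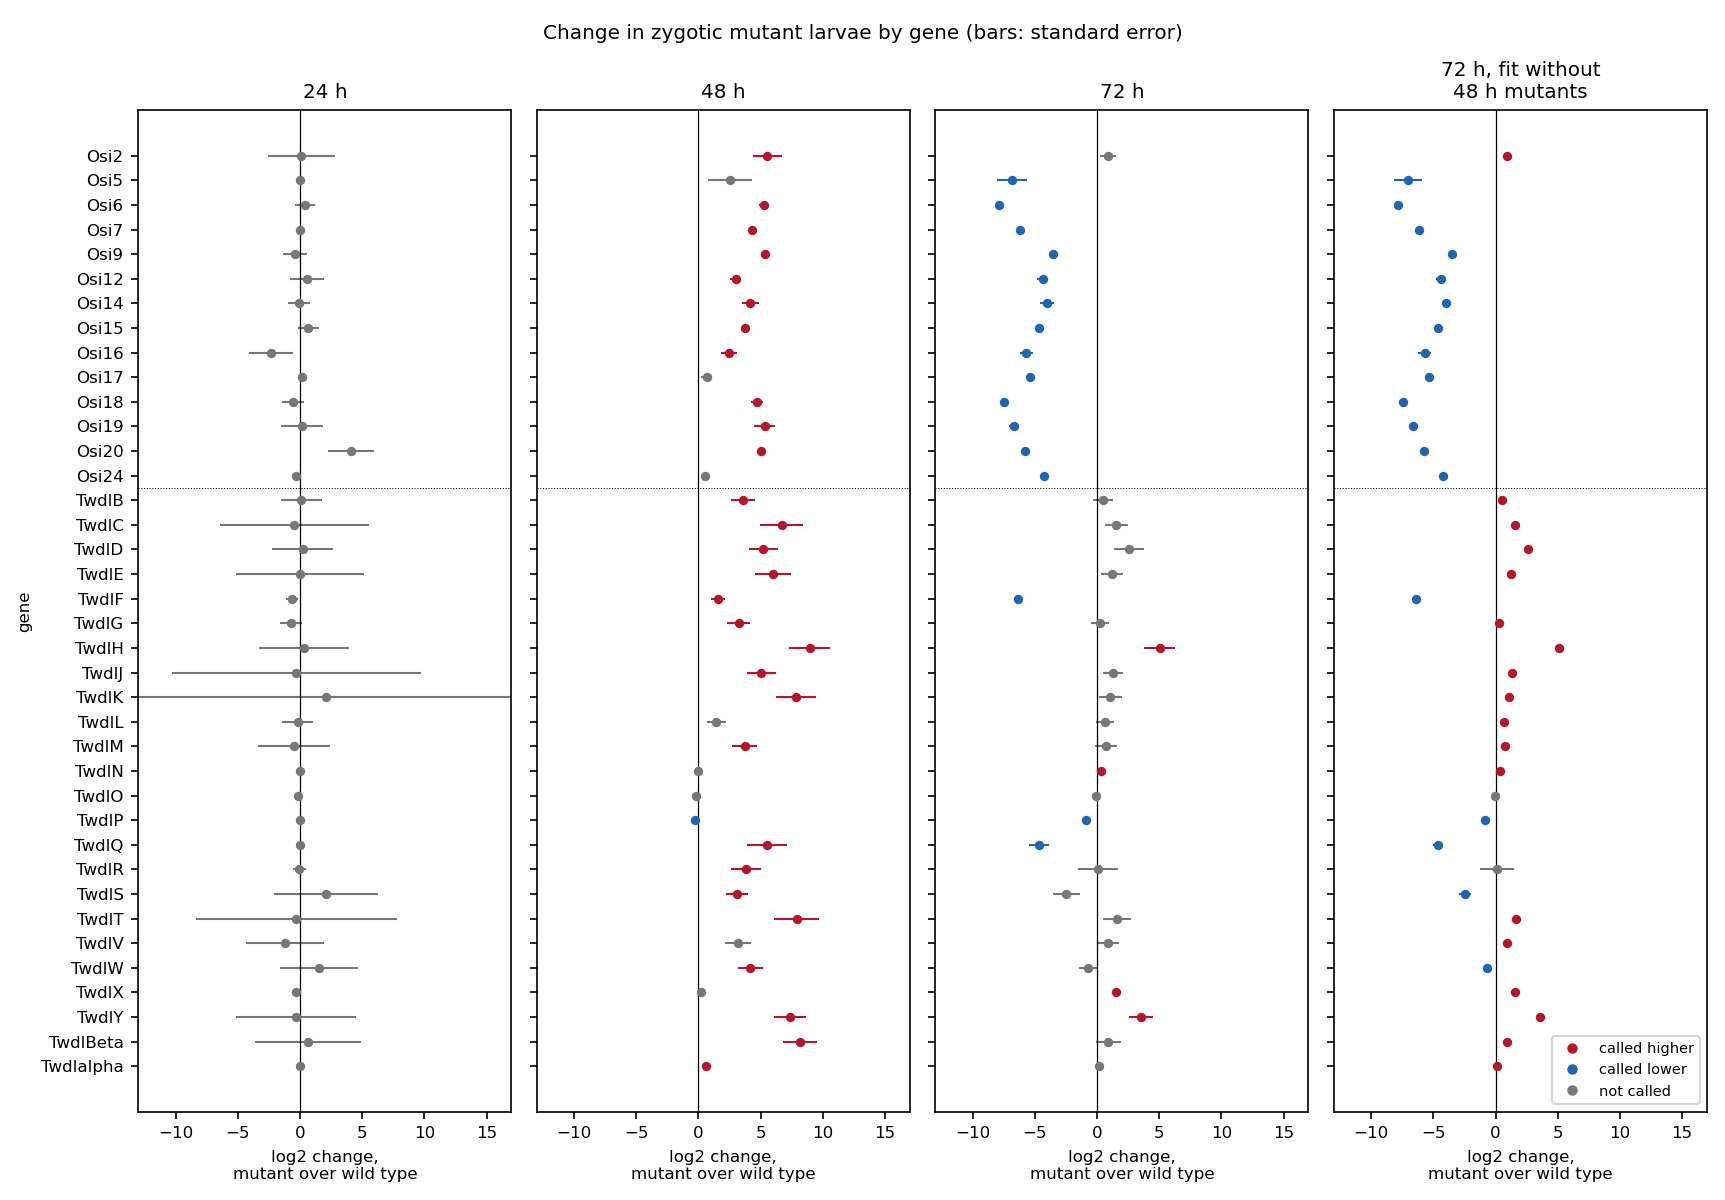
Log2 change, mutant over WT larvae, with SE, for the tested Osiris and Tweedle genes at 24, 48 and 72 h, and at 72 h from the fit without the 48 h mutants. At 48 h the points lie mostly to the right of 0 with wide bars. At 72 h 13 Osiris genes lie to the left, Osi6 at -7.89, and TwdlH lies at 5.04. The bar of TwdlK at 24 h runs past the axis.

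The ages were also compared within each genotype; these comparisons share libraries with those above. In mutants from 24 to 48 h, 12 Osiris genes were called higher and 0 lower, and 22 Tweedle genes higher and 1 lower, beside 33.0% of all genes higher and 34.2% lower. From 48 to 72 h in mutants, 0 Osiris genes were called higher and 12 lower, and 4 Tweedle genes each way, beside 29.1% and 26.0%. WT larvae from 24 to 48 h had 5 Osiris and 6 Tweedle genes called higher and 1 Tweedle gene lower, TwdlR, beside 32.8% and 36.2%. WT larvae from 48 to 72 h had 14 Osiris and 13 Tweedle genes called higher and 1 lower, TwdlO, beside 27.9% and 23.3%. Without the 48 h mutants in the fit, the WT calls from 24 to 48 h came to 24 higher and 2 lower, beside 36% and 35.5% of all genes. Those from 48 to 72 h came to 35 higher and 1 lower, beside 28.5% and 26.7%.

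Whether the genotype difference itself depended on age was tested by interaction terms. From 48 to 72 h the mutant effect dropped for all 14 tested Osiris genes, with Osi6 at -13.13 ± 0.50 (edgeR, adjusted p = 1.9e-06) and Osi7 at -10.48 ± 0.13 (edgeR, adjusted p = 9.6e-23). Among Tweedle genes it dropped for 7 and rose for 2, TwdlN and TwdlX. The background was 20.9% of all genes dropping and 20.8% rising. From 24 to 48 h the effect rose for 4 Osiris genes (Osi6, Osi7, Osi9 and Osi18) and dropped for TwdlP. Over both families these 5 of 38 members are near the background of 7.38% and 5.71% of all genes. By family, the effect rose for 4 of 14 tested Osiris genes and 0 of 24 Tweedle genes.

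Other genes of the cuticle were counted from lists of enzymes, matrix proteins and regulators. The counts stand beside 16% of all genes called higher and 13.8% lower at 48 h, and 26.6% and 30.6% at 72 h. Of 23 tested genes of chitin synthesis and matrix, 14 were called higher and 1 lower in 48 h mutants (median log2 change 0.66), and 8 higher and 2 lower at 72 h (median 0.31). At 48 h the largest increases were those of CG2837 (2.81 ± 0.63) and of Cht6, a chitinase (1.45 ± 0.16), and Cht3, another chitinase, was lower (-1.05 ± 0.06). Of 9 genes of hardening and colour, 6 were called higher and 0 lower at 48 h (median 1.20). They included y, the yellow gene of dark pigment (2.62 ± 0.51), and Ddc, the decarboxylase that makes dopamine (1.79 ± 0.51). At 72 h 5 of the 9 were higher and 1 lower (median 0.21).

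Of 17 cuticle regulators, 5 were called higher and 4 lower at 48 h (median -0.02). Those higher included ftz-f1, a nuclear receptor of the moulting cascade (1.12), and EcR, the ecdysone receptor (0.57), and Eip75B, an ecdysone-induced receptor, was lower (-0.25). At 72 h 0 were higher and 11 lower (median -0.58), among them Eip75B (-0.84 ± 0.06).

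Markers of other tissues moved with the genotype as well, and their counts stand beside the same shares of all genes. The fat body list summed to 94.4 and 90.3 CPM in 48 h mutants and 1.18 and 0.418 CPM in WT larvae. At 72 h it summed to 538 and 561 CPM in mutants and 11.3 and 10.9 CPM in WT larvae. The sums take in all genes of the list, of which 4 were tested. The follicle cell and eggshell list had 13 of 14 tested genes called higher in 48 h mutants, with sums of 898 and 681 CPM, against 23.6 and 23.5 CPM in WT larvae. At 72 h the muscle list had 9 of 10 genes called higher, and its sums were 81100 and 82600 CPM in mutants and 53650 and 52630 CPM in WT larvae. The gut list summed to 8571 and 8569 CPM in 72 h mutants and 17340 and 16500 CPM in WT larvae, with 2 of 8 genes higher and 6 lower. The neuron list summed to 147 and 138 CPM in 72 h mutants and 196 and 201 CPM in WT larvae, with 1 of 8 genes higher and 7 lower. The part of such tissue differences in the Osiris and Tweedle values was not tested. In whole animals, fewer cells of a type and less RNA per cell cannot be told apart.

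Among genes outside the families, dyl, which encodes an apical matrix protein of epidermal extensions, had the group means most like the mean of the Osiris genes (Pearson r = 0.9971 over the 6 larval groups, 9478 genes compared). MED10, which encodes a subunit of the Mediator complex, had the same r to 4 decimals. Over all 36 groups dyl again came first (r = 0.9897, 10231 genes compared), followed by CG9411 (0.9755) and spz4 (0.9677). The mean of the Tweedle genes was matched most closely over larvae by CG32694 (0.9966), Cda5, a chitin deacetylase (0.9963), and Pxd, a peroxidase (0.9954). Over all groups it was matched by CG30458 (0.9935), CG32694 (0.9925) and Cpr65Av, a cuticle protein (0.9894). These groups share libraries and stages, so the values are descriptions.

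Cuticle is secreted late in embryogenesis, well after the windows sampled here. The WT embryos of the separate experiments nevertheless held these RNAs in widely different amounts. At 2.5 to 3 h the summed Osiris counts in the 2 WT libraries were 66 and 71 in the IntS11 mislocalization experiment, 18 and 10 in the IntS9 experiment, 3095 and 2402 in the KD experiment and 2031 and 2396 in the rescue experiment. The summed Tweedle counts were 1427 and 1506, 15 and 23, 2498 and 1950, and 15 and 15. The KD WT thus held both families, the IntS11 WT mainly Tweedle and the rescue WT mainly Osiris.

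The list of 10 muscle genes, which are abundant in late embryos, differed between experiments too. At 2.5 to 3 h it summed to 224 and 252 CPM in KD embryos, against 4276 and 4244 CPM in their WT. It summed to 4.39 and 4.98 CPM with mislocalized IntS11, against 306 and 325 CPM in WT, and to 13.9 and 12 CPM with mislocalized IntS9, against 19.99 and 18.6 CPM in WT. In the rescue experiment the sums were 15.5 and 15.2 CPM with Flag IntS11 WT, 9.01 and 9.44 CPM with the E203Q form, 34.7 and 32.6 CPM with mislocalized IntS11 and 282 and 278 CPM in WT. The muscle sums were lower than in WT wherever Osiris or Tweedle sums were far lower. The part of such late-embryo RNA in the differences was not tested.

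**Figure D4:**
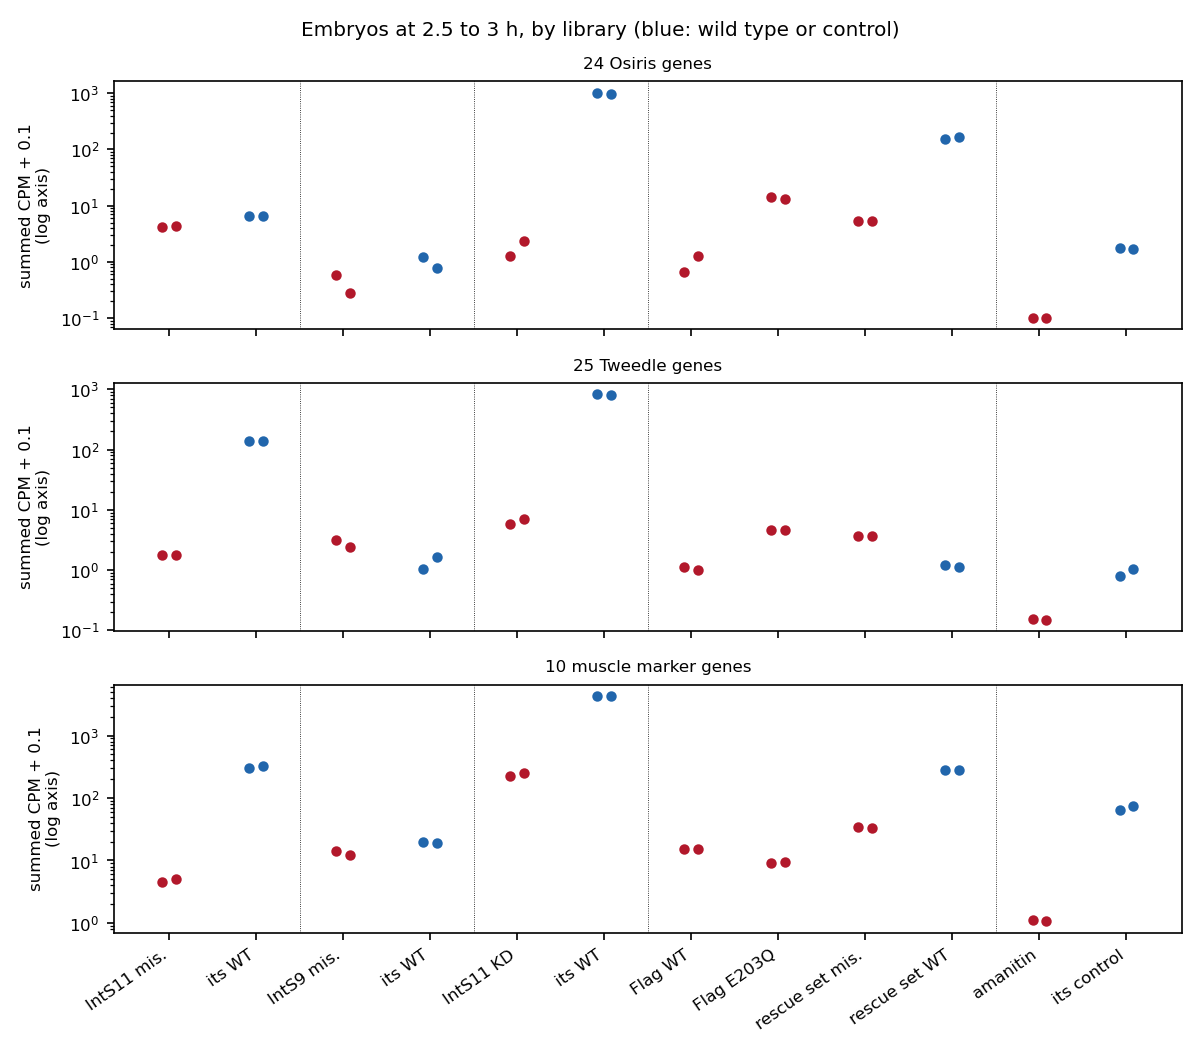
Summed CPM of the 24 Osiris genes, the 25 Tweedle genes and 10 muscle markers in embryos of 2.5 to 3 h, by experiment, on a log axis, with each library a dot. In the KD experiment Osiris sums are 1.19 and 2.21 CPM in KD embryos, against 1019 and 972.9 CPM in WT, and muscle markers lie in the same order.

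In KD embryos at 2.5 to 3 h, nearly all Osiris and Tweedle RNA of the WT was missing. The Osiris sum was 1.19 and 2.21 CPM in KD embryos and 1019 and 972.9 CPM in WT, and the Tweedle sum 5.76 and 6.95 CPM in KD embryos and 822 and 790 CPM in WT. Osi6 had 0 and 2 counts in the KD libraries and 1199 and 975 in the WT libraries. Osi7 had 1 and 0 counts in KD and 818 and 638 in WT.

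TwdlM had 2 and 1 counts in KD embryos and 483 and 362 in WT. TwdlF had 1 and 1 counts in KD and 369 and 286 in WT, and TwdlB had 0 counts in KD, at least 535-fold lower for a floor of 3 counts over the group. For Osi6 the ratio of scaled levels, KD over WT, was 0.000253 with a counting interval of 3.06e-05 to 0.000916, which covers counting error only (edgeR, adjusted p = 2.9e-17). Of 30 tested members 29 were called lower and 1 higher, beside 36% of all 9681 genes lower and 39.7% higher. The exception was Osi1, the first gene of the 3R block. As in larvae, members could pass the filter on low counts through the group where they were high, here mostly the WT, so this count and those of the other embryonic experiments describe the tested members and are not further support.

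The KD WT held these RNAs in the earliest window as well. Osi6 had 3 and 3 counts in KD embryos of 0 to 0.5 h and 136 and 158 in WT, a log2 change of -7.14 ± 0.28 (edgeR, adjusted p = 2e-13). TwdlF had 1 and 1 counts in KD embryos of that age and 50 and 48 in WT. The Osiris sum was 84 and 121 counts in KD and 343 and 338 in WT, although the WT libraries were several times shallower. At 0 to 0.5 h 2 of 30 members were called higher and 17 lower, beside 39.5% and 29.6% of all genes. At 1 to 1.5 h the calls were 5 higher and 15 lower, beside 41.7% and 31.0%, and 13 in all without the first WT library.

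Among the cuticle lists, 5 of 23 tested genes of chitin synthesis and matrix were called higher and 15 lower in 2.5 to 3 h KD embryos, beside 39.7% and 36% of all genes, which is also the background of the lists that follow. Those lower included serp (4.77 ± 1.05 CPM in KD and 123 ± 10.1 CPM in WT, SD, n = 2 each) and verm, both chitin deacetylases of the tracheal lumen. Of 17 regulators 3 were higher and 11 lower, among them grh, the grainy head factor of epidermis, with 12.9 ± 0.782 CPM in KD and 106 ± 1.64 CPM in WT. The hardening and colour list had 6 of 9 genes higher and 2 lower. The fat body list summed to 1238 and 1498 CPM in these KD embryos, against 4.61 and 2.43 CPM in WT, and its part in these values was not tested.

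In the IntS11 mislocalization experiment, Tweedle RNA was far lower in the mutant than in WT at 2.5 to 3 h, unlike in the rescue experiment described below. The sum was 27 and 29 counts (1.69 and 1.72 CPM) in the mutant and 1427 and 1506 counts (138 and 137 CPM) in WT. TwdlM had 0 counts in the mutant and 403 and 451 in WT, and was at least 437-fold lower for the same floor. TwdlD, the Tubby gene, had 0 counts in the mutant and 231 and 246 in WT, and was at least 244-fold lower. TwdlB had 0 in the mutant and 124 and 136 in WT, and was at least 133-fold lower. The libraries of the mutant and WT did not overlap for any of the 3 genes.

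The Osiris sum in the same embryos was 65 and 71 counts (4.08 and 4.21 CPM) in the mutant and 66 and 71 counts (6.36 and 6.44 CPM) in WT. On the CPM scale the mutant libraries were below both WT libraries. Osi15 had 1 count over both mutant libraries, against 34 and 35 counts in WT, and Osi12 had 31 and 26 counts in the mutant, against 3 and 0 in WT. Of 16 tested members 1 was called higher, Osi12, and 15 lower, beside 30.1% of all 8804 genes higher and 53.2% lower. All tested genes had a median log2 change of -0.379 on this scaling, and -0.021 when libraries were scaled to total counts. Osi2 (-1.01 ± 0.39; edgeR, adjusted p = 0.026) did not pass under that scaling. At 0 to 0.5 h Osi12 was the 1 member called higher and 0 were called lower, beside 16.8% and 14.8% of all genes. At 1 to 1.5 h edgeR called 0 of 16 members, beside 47.3% of all genes called either way, with 0 at an unadjusted p under 0.05 and 0 called by DESeq2.

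In embryos with mislocalized IntS9 the Tweedle genes were higher than in WT at 1 to 1.5 h. Their sum was 106 and 128 counts in the mutant, against 6 and 6 in WT, and the Osiris sum was 42 and 81 counts, against 1 and 1. All 8 tested members were called higher, beside 31.3% of all genes higher and 28.2% lower. TwdlO, the abundant larval member, had 64 counts in the mutant libraries and 0 in WT, at least 17.52-fold higher for the floor. At 0 to 0.5 h the Tweedle sums overlapped, with 97 and 91 counts in the mutant and 100 and 82 in WT. There 3 members were called higher and 1, TwdlO, lower, beside 26.0% and 26.5%.

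At 2.5 to 3 h the IntS9 mutant had 43 and 38 Tweedle counts, against 15 and 23 in WT. The calls were TwdlG and TwdlO, 2 of 8 tested members higher and 0 lower, beside 40.4% and 43.0% of all genes. TwdlG had 15 and 11 counts in the mutant and 2 and 1 in WT, a ratio of 8.77 (counting interval 2.69 to 45.2; edgeR, adjusted p = 3.8e-04). It was higher at the earlier ages as well, with 16 and 16 counts against 0 and 1, and 13 and 18 against 2 and 0. All of these counts are small.

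The difference between the IntS9 and IntS11 mislocalization effects was tested in a joint fit of both experiments, each against its own WT. At 2.5 to 3 h it was called for 6 of 19 tested members, TwdlD, TwdlG, TwdlN, TwdlT, TwdlW and TwdlY. That count is near the 32.6% of all genes called either way. All 6 had the higher effect in the IntS9 experiment, beside 1452 of all 9459 genes with a higher and 1636 with a lower effect. The WT embryos of the 2 experiments differed in the same genes, with 15 and 23 Tweedle counts in the IntS9 WT and 1427 and 1506 in the IntS11 WT. At 0 to 0.5 h and 1 to 1.5 h edgeR called 0 of 19 members, beside 16.1% and 37.3% of all genes. In both windows 0 had an unadjusted p under 0.05, and DESeq2 called 0 and 1.

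Osi12 was the Osiris gene that most often stood higher in disturbed embryos. It lies in the middle of the 3R block (6278531 to 6282495). At 0 to 0.5 h it had 5 and 11 counts with mislocalized IntS11, 25 and 28 with mislocalized IntS9 and 6 and 10 with the knockdown, and the WT of each experiment had 0 and 0. All 3 were called higher, by at least 5.39-fold, 15.9-fold and 1.76-fold for the floor. At 1 to 1.5 h it had 15 and 32 counts with mislocalized IntS9, against 0 and 1 in WT, and 11 and 13 with the knockdown, against 1 and 0. At 2.5 to 3 h the knockdown was lower than its WT, 1 and 1 counts against 21 and 12.

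Osi1 was counted mainly in KD embryos. It had 52 and 80 counts at 0 to 0.5 h, 52 and 31 at 1 to 1.5 h and 6 and 7 at 2.5 to 3 h, and 0 in all 6 WT libraries of that experiment. It was called higher in each window, by at least 14.5-fold, 8.003-fold and 1.19-fold for the floor. The call at 2.5 to 3 h was lost with library sizes from total counts or median ratios (RLE) and with DESeq2. In embryos with mislocalized IntS9 it had 6 and 6 counts at 0 to 0.5 h, against 1 and 0, and 8 and 17 at 1 to 1.5 h, against 0 and 0.

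Genes beside these were looked at after the values had been seen. Osi11 and Osi13, the Osiris genes on either side of Osi12, had 0 counts in the 0 to 0.5 h libraries of embryos with mislocalized IntS9, and 0 and 0 and 0 and 1 counts in KD embryos of that age. Both were barely counted anywhere, with 32 and 12 counts over all 72 libraries. NPFR, a neuropeptide receptor gene next to Osi1 (3R, 6187315 to 6195403), had 48 and 48 counts in KD embryos of 0 to 0.5 h and 0 and 0 in WT. With mislocalized IntS9 it had 35 and 32 counts at that age, against 0 and 0 in WT. Osi1 and NPFR were thus both above WT in these embryos, while the counts of Osi11 and Osi13 are too low to compare with those of Osi12.

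**Figure D5:**
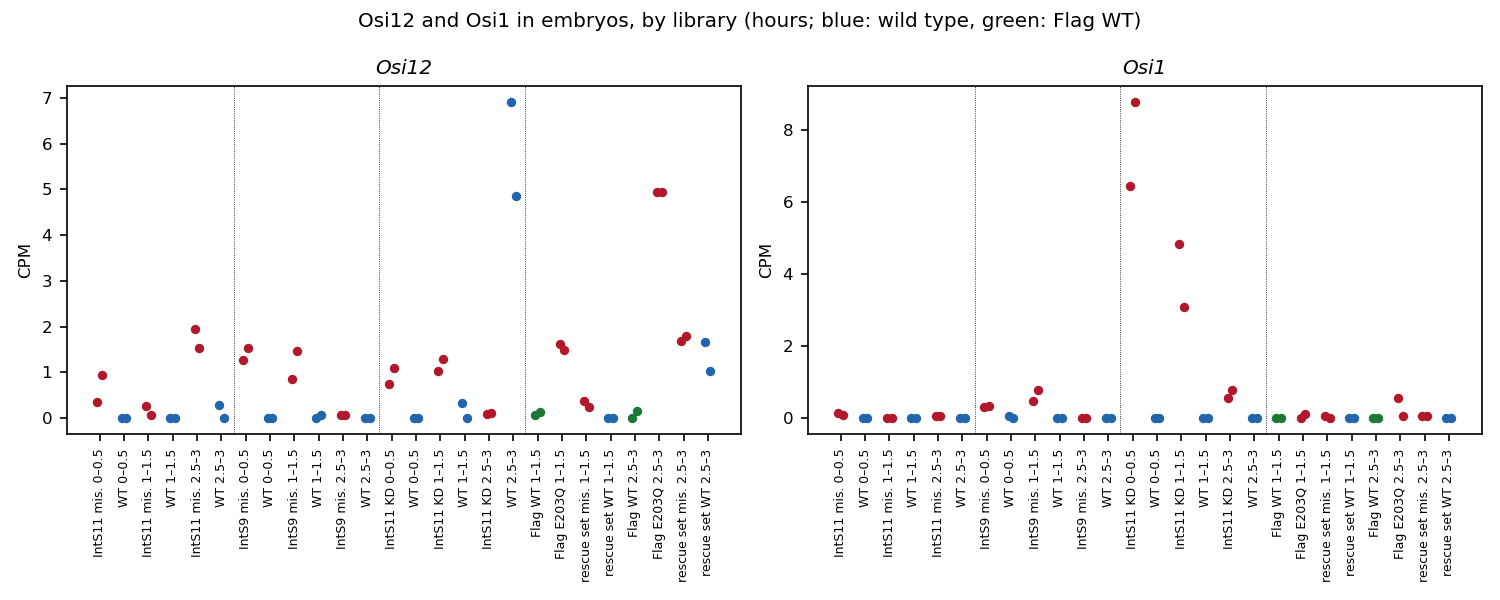
CPM of Osi12 and Osi1 in each embryonic library outside the alpha-amanitin experiment, by experiment and window, with disturbed embryos left of their WT. Osi12 has its most counts with Flag IntS11 E203Q at 2.5 to 3 h (89 and 78). Its mean CPM is higher in the far shallower WT of the KD experiment at that age. Osi1 is highest in KD embryos of 0 to 0.5 h (52 and 80 counts).

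In the rescue experiment Osiris RNA was present in WT embryos at 2.5 to 3 h and far lower in the other 3 genotypes. The sums were 8 and 15 counts with Flag IntS11 WT, 250 and 202 with the E203Q form, 94 and 96 with mislocalized IntS11 and 2031 and 2396 in WT. Osi6 had 0 counts with mislocalized IntS11 and 1052 and 1210 in WT, at least 988-fold lower for the floor. Osi7 had 13 counts over both mislocalized libraries and 617 and 812 in WT, a log2 change of -7.13 ± 0.22 (edgeR, adjusted p = 6.5e-19). Of 17 tested members 3 were called higher with mislocalized IntS11, TwdlN, TwdlO and TwdlW, and 10 lower, beside 40.8% and 41.1% of all 9156 genes. The Tweedle sums were 67 and 65 counts with mislocalized IntS11 and 15 and 15 in WT. This order was opposite to that in the IntS11 mislocalization experiment.

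The embryos given either form of IntS11 differed from each other. Osi12 had 0 and 2 counts with Flag IntS11 WT, 89 and 78 with its E203Q form, 31 and 33 with mislocalized IntS11 and 22 and 15 in WT. Osi17 had 4 and 4, 55 and 54, 17 and 21, and 23 and 29 counts in the same order. For both genes E203Q was highest and Flag IntS11 WT lowest, with no overlap between any of those groups and the others.

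Flag IntS11 WT against E203Q gave 0 members higher and 8 lower at 2.5 to 3 h, beside 37.7% and 37.4% of all genes. Osi17 differed by -3.43 ± 0.38 (edgeR, adjusted p = 2.9e-08), and Osi12 by a ratio of 0.0148 (counting interval 0.00177 to 0.0541; edgeR, adjusted p = 6e-11). Flag IntS11 WT against mislocalized IntS11 gave 0 higher and 6 lower, beside 39.1% and 39.3%. Flag IntS11 E203Q against mislocalized IntS11 gave 6 higher and 1 lower, beside 25.5% and 28.0%. Those higher included Osi17 (1.63 ± 0.27; edgeR, adjusted p = 2.2e-05) and Osi12 (1.499 ± 0.23; edgeR, adjusted p = 7.4e-06). DESeq2 kept 2 of these 7 calls. These comparisons share the mislocalized and the Flag libraries.

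At 1 to 1.5 h counts were smaller. Osi12 had 1 and 2 counts with Flag IntS11 WT, 23 and 24 with E203Q, 6 and 4 with mislocalized IntS11 and 0 and 0 in WT. Mislocalized IntS11 against WT gave 3 members higher (Osi7, Osi12 and Osi18) and 0 lower, beside 34.7% and 18.7% of all genes, and leaving out either WT library left 1 call. Flag IntS11 WT against mislocalized IntS11 gave 5 higher and 0 lower, beside 10.2% and 14.0%. E203Q against mislocalized IntS11 gave 5 higher and 0 lower, beside 17.2% and 26.5%, and leaving out single mislocalized libraries left 2 and 3 calls. Flag IntS11 WT against E203Q gave 4 each way, beside 26.2% higher and 19.4% lower. TwdlD, with 33 counts over the Flag IntS11 WT libraries and 0 with mislocalized IntS11, was at least 11.8-fold higher in that comparison.

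In embryos treated with alpha-amanitin no member reached the counts needed for a test. At 2.5 to 3 h the Osiris sum was 0 and 0 counts in treated embryos and 24 and 17 in controls, and the Tweedle sum 1 and 1 in treated embryos and 10 and 10 in controls. At 1 to 1.5 h the Osiris sums were 0 and 2 in treated embryos and 1 and 0 in controls, and the Tweedle sums 1 and 1 in treated embryos and 5 and 0 in controls. The muscle list at 2.5 to 3 h summed to 1.03 and 0.96 CPM in treated embryos and 63.3 and 74.4 CPM in controls.

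Reads of some members were divided between genes by the authors' counting. Counts were not whole numbers, beyond a tolerance of 0.005, for TwdlB and TwdlL in 16 libraries each, TwdlN in 12, TwdlM in 7, and TwdlJ and TwdlK in 6 each, so the split between these genes is uncertain. Osi21 overlaps mre11 and TwdlE overlaps lectin-28C on the opposite strand. On the same strand TwdlT overlaps RYa-R, Twdlalpha overlaps CG32568 and Osi24 overlaps a BS transposon insertion. No Osiris gene had a count that was not whole.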

How the data were processed

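Total RNA depleted of ribosomal RNA was made into strand-specific libraries, per the labels' protocols, and each of the 72 libraries came with 1 table of genes. The deposited tables hold expected counts, estimated by the authors with RSEM and therefore not always whole, and TPM, the authors' level per transcript length. Per the submitters' processing notes the tools were RSEM 1.3.1, STAR 2.7.10a, Trimmomatic 0.39 and DESeq2 1.40.2, with build dm6. Whether strand entered the counting is not stated.

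Here expected counts were rounded to whole numbers and fitted per experiment with edgeR 4.0.16 (R 4.3.3, TMM scaling, filterByExpr, robust quasi-likelihood test, Benjamini-Hochberg adjustment over all tested genes, threshold 0.05), on all genes, with members printed. Printed standard errors are the log2 change divided by the square root of the test statistic. CPM uses the TMM library sizes. A bound for a group at 0 uses 3 counts over the group. The fit was tested on simulated larval counts, drawn with its own estimates of spread, for mutants against WT at 72 h only. Of changes of 1.5, 2 and 4 times it recovered 82.1%, 97% and 100%, and 7% of its calls were false. The embryonic fits were not tested in this way. The lowest mean chi-square per gene between the libraries of a group was 1.16, and none was counted as a duplicate. This value belonged to the WT of the KD experiment, which had 1.16, 1.39 and 1.17 in the 3 windows, near what counting error alone gives. Its KD groups had 10.3, 3.06 and 32.7. Alternatives were a replicate block, leaving out each library, DESeq2 1.42.0, library sizes from median ratios (RLE) or from total counts, and no filter on low counts. Positions, overlaps and neighbouring genes came from an Ensembl gene annotation of the dm6 assembly. Members were matched to it through RefSeq's table.

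The members, the lists (chitin synthesis and matrix, hardening and colour, cuticle regulators, muscle, neuron, gut, fat body, follicle cell and eggshell) and the tests were chosen with earlier results of these data known. Values by library were to be given for up to 3 Osiris and 3 Tweedle genes per comparison, those called with the largest log2 change and a mean of at least 5 TPM in an arm, or else with the most counts. Up to 4 list genes per direction were to be named by the same rule. Osi7, Osi9, Osi12, Osi17, Osi1, TwdlN, TwdlP, TwdlX, TwdlC and TwdlQ were added after their values had been seen. Genes of like pattern had a group mean of at least 5 CPM. No sequence was used here.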

Additional observations from a re-analysis of the deposited data

Results flagged for a closer look

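The mutant effect in larvae differed between ages by the interaction term of the edgeR fit. From 24 to 48 h the difference was called for 5 members, with the higher effect at 48 h for Osi6, Osi7, Osi9 and Osi18 and the lower for TwdlP, which was -0.30 ± 0.08 on the log2 scale (edgeR, adjusted p = 0.014). Over both families these 5 of 38 members are near the background, 7.38% of all genes with a higher and 5.71% with a lower effect. The higher effects were those of 4 of 14 tested Osiris genes and 0 of 24 Tweedle genes. From 48 to 72 h it was called for 23 members, 14 Osiris and 9 Tweedle genes, and dropped for all but TwdlN and TwdlX, beside 20.9% of all genes dropping and 20.8% rising. The 48 h mutant libraries enter both terms. They differed from each other by a median factor of 10.6 on CPM + 1 in the Tweedle genes. The part of this spread in the calls was not tested.

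The effects of IntS9 and IntS11 mislocalization at 2.5 to 3 h differed for 6 members, TwdlD, TwdlG, TwdlN, TwdlT, TwdlW and TwdlY, with TwdlG at 7.17 ± 0.83 on the log2 scale, IntS9 effect minus IntS11 effect (edgeR, adjusted p = 5.86e-07). These 6 of 19 tested members are near the background of 32.6% of all genes called either way. All 6 had the higher effect with IntS9, beside 1452 of all 9459 genes with a higher and 1636 with a lower effect. The WT embryos of the 2 experiments also differed in Tweedle counts, and this cannot be told apart from the experiments.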

How the results depend on the processing

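Member calls kept their direction under RLE scaling, total counts, no filter, DESeq2, the replicate block and the fit without the 48 h mutants. The counts of called members that moved by more than 1.5 times are given here with the count from the edgeR fit in brackets. The fit without the 48 h mutants gave 3 (0) for mutants against WT at 24 h, 36 (20) at 72 h and 26 (12) for WT larvae from 24 to 48 h. DESeq2 gave 19 (12) for WT larvae from 24 to 48 h, 20 (5) for the larval effect from 24 to 48 h, 3 (5) and 2 (7) for E203Q against mislocalized IntS11 in the earlier and later window, and 1 (0) and 12 (6) for IntS9 minus IntS11 at 1 to 1.5 and 2.5 to 3 h. No filter gave 2 (1) for mislocalized IntS11 at 0 to 0.5 h, 8 (4) and 7 (2) for mislocalized IntS9 at 0 to 0.5 and 2.5 to 3 h, 3 (0) for alpha-amanitin at 2.5 to 3 h, 8 (5) for Flag IntS11 WT against mislocalized IntS11 at 1 to 1.5 h and 13 (8) for Flag IntS11 WT against E203Q at 2.5 to 3 h. No label says that replicate numbers pair the libraries, and 2 libraries a group cannot show it. Correlations of replicate differences ran from -0.246 to 0.322 (mislocalized IntS11 at 2.5 to 3 h), and were 0.173 to 0.317 among the Flag and mislocalized embryos at 1 to 1.5 h. The replicate block gave 9 (5) for the larval effect from 24 to 48 h and 26 (30) for mutants at 48 h, and it moved no other count by over 1.5 times.

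Leaving out single libraries gave 11 to 35 calls (30) for mutants against WT larvae at 48 h, 17 to 37 (20) for mutants from 48 to 72 h, 18 to 23 (28) for WT larvae from 48 to 72 h, 2 to 26 (5) and 18 to 37 (23) for the larval effect over the earlier and later interval. In embryos it gave 0 to 2 (1) for mislocalized IntS11 at 0 to 0.5 h, 2 to 4 (2) for mislocalized IntS9 at 2.5 to 3 h, 13 to 18 (20) for the knockdown at 1 to 1.5 h, 1 to 3 (3) for mislocalized IntS11 in the rescue experiment at 1 to 1.5 h, and 2 to 4 (5) and 4 to 6 (7) for E203Q against mislocalized IntS11 at 1 to 1.5 and 2.5 to 3 h. A group left with 1 library was assumed to vary like the others. Leaving out single libraries turned the sign of 9 values and brought 1 to 0, all without the first 48 h mutant library. Against WT at 48 h the lowest and highest log2 changes over the libraries left out were -1.59 and 7.63 for TwdlC, -0.35 and 2.27 for TwdlF, -2.29 and 7.68 for TwdlQ, and -3.13 and 4.73 for TwdlR. In mutants from 24 to 48 h they were -0.032 and 9.17 for TwdlC, -0.28 and 2.33 for TwdlF, -0.10 and 3.52 for TwdlG, and 0.00 and 8.68 for TwdlQ. In mutants from 48 to 72 h they were -2.12 and 0.49 for TwdlF, and -6.86 and 3.06 for TwdlR. The cause of these changes was not tested, other than that fewer libraries or more genes entered the fit. Total counts moved the median log2 change of all genes by 0.358 for mislocalized IntS11 at 2.5 to 3 h and by -0.618, -0.441 and -0.353 for the knockdown in its 3 windows, and the share of all calls that were higher to 49.4% (36.2%), and to 35.3% (57.1%), 41.5% (57.4%) and 40.0% (52.4%). Depth limits the embryonic values: many members rest on fewer than 20 counts, and a p that misses the threshold there does not show equal levels.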
